A study of Mus musculus with 2 samples.

Results

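Odc1 encodes ornithine decarboxylase, the enzyme that makes putrescine from ornithine. Oaz1 and Oaz2 encode antizymes, and Azin1 and Azin2 encode antizyme inhibitors. These 5 genes were taken by symbol from the 17775 genes of the deposited table, and all 5 were found. The RNA came from cells of MC38 tumours, a mouse colon carcinoma line grown in C57BL/6 mice. The groups were DFMO (difluoromethylornithine, an irreversible inhibitor of ornithine decarboxylase) and water, given by gavage for 14 days from day 7 after 200000 MC38 cells were implanted. The series text gives daily gavage and the treatment label gives 2 gavages a day. Tumours of 4 mice per group were digested, immune cells were enriched on Ficoll, and the pooled cells made 1 single-cell 5′ library per group. No genotype other than the strain was given, and DFMO and water mice differed by the gavage alone, as far as the labels say.

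Ornithine decarboxylase performs the first committed step of polyamine synthesis, and its protein is short-lived. When polyamines are plentiful, ribosomes shift reading frame on antizyme mRNA and complete the antizyme protein, which binds ornithine decarboxylase, delivers it to the proteasome without ubiquitin and slows polyamine uptake. Antizyme inhibitors resemble the decarboxylase but make no putrescine, and they bind antizyme and so release the enzyme. Much of this circuit acts on protein, and the data measured mRNA only.

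The antizyme frameshift site is shown because it is the element through which polyamines act on this circuit. The lines give 30 bases of the mm10 plus strand from GENCODE M21 transcripts, with the last codon of the first frame and its stop codon in capitals.
Oaz1, chr10:80828277-80828306: gggcctcggtggtgcTCCTGAtgtccctca
Oaz2, chr9:65686254-65686283: gggcctctgtggtgcTCCTGAtgcccctca
The sites were identical at 28 of 30 bases. Counts at the 5′ end of a transcript do not measure frameshifting.

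Odc1 (ENSMUSG00000011179) lies on mm10 chromosome 12, 17544794 to 17551505, plus strand. Oaz1 (ENSMUSG00000035242) lies on chromosome 10, 80826656 to 80829290, plus strand. Oaz2 (ENSMUSG00000040652) lies on chromosome 9, 65668001 to 65690300, plus strand. Azin1 (ENSMUSG00000037458) lies on chromosome 15, 38487427 to 38519266, minus strand, and Azin2 (ENSMUSG00000028789) on chromosome 4, 128930233 to 128962442, minus strand. The annotation places an antisense gene over Azin1 and another over Azin2. Of the 31-base stretches in Odc1 transcripts, 31.3% also occurred in transcripts of 20 other annotated genes, and none of these genes was in the deposited table. The same share was 24.0% for Oaz1, where the main copy was the pseudogene Oaz1-ps, 12% for Oaz2, 0.0942% for Azin1 and 0.907% for Azin2. Reads from such stretches may be lost, so levels of Odc1, Oaz1 and Oaz2 are uncertain in scale, and the comparisons below are between cells for the same gene.

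The promoters of Odc1 and Oaz1 are shown because, of the members seen in every large cluster, Odc1 had the widest range of levels and Oaz1 the narrowest. RefSeq windows (GRCm38.p6, plus strand) held 250 bases before and 50 bases after the start and matched 3 of the 5 members, Odc1, Oaz1 and Oaz2. Capitals mark matches on either strand to the GC box GGGCGG, the TATA box TATAAA, the CCAAT box CCAAT and the E-box CACGTG.
Odc1, chr12:17544623-17544922: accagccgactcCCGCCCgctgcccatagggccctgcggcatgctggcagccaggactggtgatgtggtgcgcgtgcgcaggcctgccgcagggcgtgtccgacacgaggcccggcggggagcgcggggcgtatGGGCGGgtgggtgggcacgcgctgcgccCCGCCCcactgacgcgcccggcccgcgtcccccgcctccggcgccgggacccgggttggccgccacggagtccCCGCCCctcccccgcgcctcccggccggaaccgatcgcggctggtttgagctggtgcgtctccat
Oaz1, chr10:80826406-80826705: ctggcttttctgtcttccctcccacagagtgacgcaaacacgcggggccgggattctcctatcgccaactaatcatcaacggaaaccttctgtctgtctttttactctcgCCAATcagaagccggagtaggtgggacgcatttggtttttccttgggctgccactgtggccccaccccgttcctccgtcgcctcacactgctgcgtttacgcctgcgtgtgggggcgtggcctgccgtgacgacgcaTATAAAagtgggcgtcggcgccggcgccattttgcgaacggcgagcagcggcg
The Odc1 window held 4 GC boxes and none of the other motifs. The Oaz1 window held 1 CCAAT box and 1 TATA box, and no GC box or E-box. Of 32851 promoter windows, 35.7% held a GC box, 37.4% a CCAAT box, 13.6% a TATA box and 7.15% an E-box. A match is a string of letters and not a shown binding site.

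The libraries differed in depth and make-up before any gene was compared. After filtering, 4421 DFMO cells and 6150 water cells remained, with medians of 2208 and 6334.5 UMIs (unique molecular identifiers, 1 per captured RNA molecule) per cell. B cell-like cells numbered 1492 in DFMO and 57 in water, and CD4 T cell-like cells 626 and 39, so values over all cells mix cell types in different shares. In sums over all cells, fewer cells of a type and less RNA per cell cannot be told apart, so levels are also given by class. The libraries shared 37 cell barcodes, and leaving those cells out moved no Odc1 ratio of a class by more than its counting interval. Each group was 1 library, so intervals cover counting error only, and differences between mice were not measured. Levels are given as CPM, the UMIs of a gene per 1000000 UMIs of all genes in the same cells.

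Odc1 varied more across cell types than across treatment. Over the 20 clusters with at least 50 cells, both libraries together, it ranged between 981 CPM in the regulatory T cell-like cluster and 27.2 CPM in a monocyte-like cluster led by Ly6i and S100a9, a 36.1-fold range. The top cluster stood 7.88 times above the median cluster, at 124 CPM. Clusters were partly built from the same counts, so this order is a description.

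Regulatory T cell-like cells (cluster 13, led by Tnfrsf4, Foxp3, Ctla4 and Izumo1r) came first, and their interval of 929 to 1034 CPM did not meet that of the next cluster. Cluster 14, a cluster with little Ptprc, which encodes the leukocyte surface protein CD45, led by Mcpt2, Wfdc18, Lcn2 and Krt19, was second at 314 CPM (291 to 339). Its interval also stood clear of the next. Cluster 12, which has no class name and was led by Gzmk, Cxcr3, Actn2 and the T cell receptor adaptor Lat, had 225 CPM (194 to 260).

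Below these, neighbours in the order overlapped. CD8 T cell-like cluster 6, led by Gzmf and Pdcd1, had 186 CPM (170 to 204). The Ptprc-low clusters 1, 5 and 3 had 180, 179 and 167 CPM. Cluster 1 was led by the cell division genes Anln, Cenpf and Tpx2. NK cell-like cells had 160 CPM (146 to 174), and conventional dendritic cell-like cells 91.5 CPM (78.9 to 106). Fibroblast-like cells and B cell-like cells stood at 80.4 and 80.3 CPM.

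The T cell clusters that carry naive genes were near the low end. CD8 T cell-like cluster 9, led by Dapl1 and Lcn4, had 67.3 CPM (53.0 to 84.2), against 186 CPM in the Pdcd1-high CD8 cluster. CD4 T cell-like cells led by Lef1 and Tcf7 had 43.4 CPM (32.2 to 57.3). The monocyte and macrophage-like clusters 10, 11 and 7 had 61.7, 42.8 and 27.2 CPM.

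**Figure D1:**
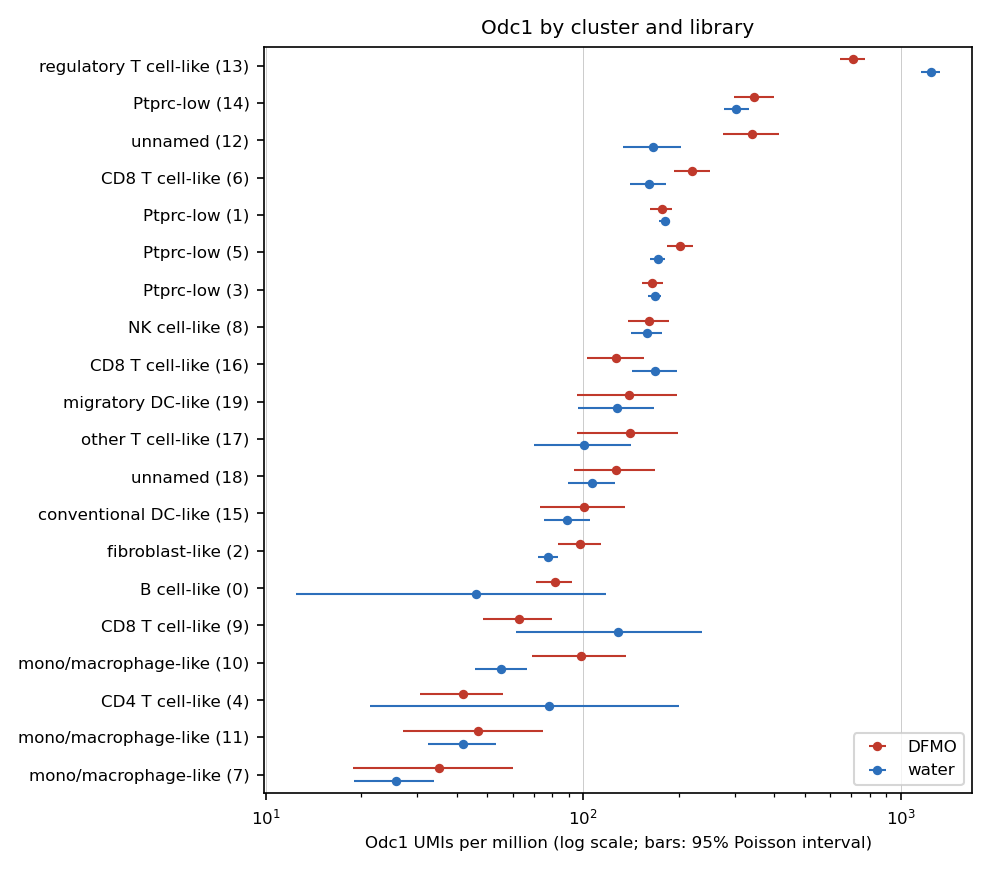
Odc1 level in CPM on a log axis for 20 clusters, DFMO above water in each row, with 95% Poisson intervals; cluster numbers stand in brackets. The regulatory T cell-like cluster stands apart at the top with 707 CPM with DFMO and 1244 CPM with water, and the lowest cluster over both libraries is the monocyte and macrophage-like cluster 7 at 27.2 CPM.

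Oaz1, the widely expressed antizyme, was nearly level across the same clusters. It ranged between 1945 CPM in cluster 14 and 935 CPM in the monocyte and macrophage-like cluster 10, led by C1qa, a 2.08-fold range. Regulatory T cell-like cells, far above all others for Odc1, had 1758 CPM of Oaz1 (1689 to 1828), near the median cluster of 1688 CPM, and the 4 lowest clusters were dendritic cell-like, monocyte-like or macrophage-like.

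Oaz2, the second antizyme, had its highest level in fibroblast-like cells, at 66.5 CPM (61.8 to 71.4). Cluster 14 followed at 51.7 CPM (42.5 to 62.3), and cluster 18, an unnamed cluster led by Ear2 and Ly6i, lay within its interval. The range over clusters was 4.78-fold, down to 13.9 CPM in migratory dendritic cell-like cells. Each pair of neighbours in the order had overlapping counting intervals.

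Azin1, the broadly expressed antizyme inhibitor, was highest in the dividing Ptprc-low cluster 1 at 121 CPM (116 to 126), and that interval did not reach the next cluster's 105 CPM (99.0 to 112). Its range was 5.24-fold. Azin2, whose protein is known mainly from brain and testis, was highest in fibroblast-like cells at 18.4 CPM (16.0 to 21.0). Cluster 18 followed at 16.3 CPM (10.7 to 23.7). Azin2 gave 0 UMIs in 5 of the 20 clusters, and CD4 T cell-like cells were among them, where 0 UMIs in 626 DFMO cells set an upper limit of 3.35 CPM. Oaz3, the testis antizyme, gave 3 UMIs in DFMO cells and 2 in water cells.

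**Figure D2:**
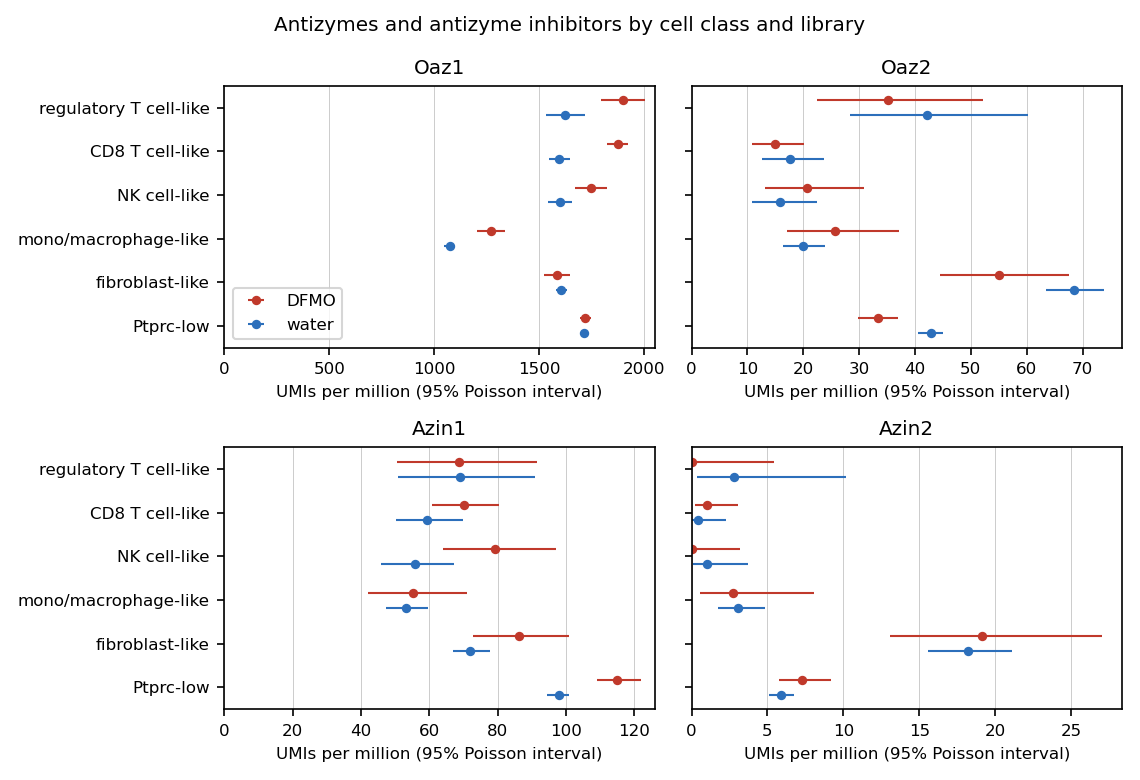
Levels of Oaz1, Oaz2, Azin1 and Azin2 in CPM, DFMO above water in each row, in the 6 classes with at least 100 cells per library; bars are 95% Poisson intervals and each panel has its own scale. Oaz1 is nearly level except in monocyte and macrophage-like cells, while Oaz2 and Azin2 are highest in fibroblast-like cells.

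Across the 20 clusters, log levels of Oaz2 and Azin2 went together with a Pearson r of 0.81, and those of Odc1 and Oaz1 with 0.52. Odc1 had r values of 0.33 with Oaz2, 0.27 with Azin1 and 0.12 with Azin2. The clusters share 2 libraries and differ in depth, so these are descriptions. Of 6313 genes with at least 20 CPM in all cells, those most like Odc1 included Zdhhc2, a palmitoyltransferase (r = 0.79), Pcnp (0.76), Chaf1b, a chromatin assembly subunit (0.74), and Naa20, an N-terminal acetyltransferase (0.74). None of these shared the Odc1 peak in regulatory T cell-like cluster 13. Zdhhc2, Pcnp and Chaf1b were highest in the CD8 T cell-like cluster 16, and Naa20 in the Ptprc-low cluster 1. Nearest to Oaz1 were Arl2bp, Eif3l and Fnta, each at 0.92. Oaz2 was most like Ncam1 (0.92), Angptl2 (0.91) and Psd (0.91), and Azin1 most like Atp2a2 (0.91), Psmd9 (0.89) and Iars (0.89). Azin2 was most like Map1lc3a (0.92), P3h1 (0.91) and Vat1 (0.91). Only 2 or 3 of the 5 genes nearest to Odc1 were also in its top 5 by Spearman's rho or in either library alone.

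DFMO inhibits the enzyme that Odc1 encodes, and the comparison asks whether mRNAs of the circuit differed between the libraries. A gene with at least 30 UMIs in both libraries together was called past the threshold at 1.5-fold either way. Over all kept cells, 0 of the 5 members passed, while 27.9% of 14122 genes did. Odc1 had 162 CPM (157 to 168) with DFMO and 157 CPM (154 to 160) with water, a log2 ratio of 0.05 (-0.01 to 0.10). The ratio for Oaz1 was 0.07, for Azin1 0.11, for Azin2 -0.48 and for Oaz2 -0.57 (-0.69 to -0.44). With every cluster given the same weight in both libraries, Oaz2 stood at -0.21 and Azin2 at 0.13, against -0.57 and -0.48 without the weighting. The same weighting moved Azin1 away from 0, from 0.11 (0.04 to 0.19) to 0.34. It put Odc1 at -0.03 and Oaz1 at 0.1. The weight of a cluster was its number of cells in both libraries together. Clusters or subclusters weighted alike, below, were weighted in this way. Oaz2 was past 1.5-fold at -0.62 with TMM scaling, -0.65 with each cell weighted alike and -0.75 after thinning, as described below. Azin2 was past it at -1.42 with each cell weighted alike and -0.94 after thinning, and under it at -0.53 with TMM. Odc1, Oaz1 and Azin1 stayed under 1.5-fold with each of these. Ratios over all kept cells are between libraries that differ in their cell types, and the classes are given next.

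In regulatory T cell-like cells, Odc1 was lower with DFMO, at 707 CPM (645 to 772), against 1244 CPM (1163 to 1329) with water. The log2 ratio was -0.82 (-0.98 to -0.65), and the intervals of the levels did not overlap. Odc1 was the member past 1.5-fold of the 4 with at least 30 UMIs there, where 22.9% of 5839 genes passed either way and 7.86% were lower past it. The median ratio was -0.13 over these 4 members and 0.10 over all genes. TMM scaling moved ratios in this class by -0.10 and put Odc1 at -0.92.

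The gap was spread over many cells. Of 176 DFMO cells, 18.8% held at least 5 Odc1 UMIs, against 29.8% of 198 water cells. At least 1 Odc1 UMI was present in 50.6% of the DFMO cells and 75.8% of the water cells, and the median depth was 2969.5 and 2583.5 UMIs, so depth ran the other way. After thinning every cell to 1000 UMIs the shares were 30.3% (23.6 to 37.7) and 54.3% (46.8 to 61.5), while the thinned shares of the monocyte and macrophage-like class were 4.4% and 3.26%. The richest 5% of cells held 46.0% of the Odc1 UMIs in DFMO and 32.0% in water. Without them the levels were 431 CPM with DFMO and 990 CPM with water.

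The make-up of the cluster also differed between the libraries, and the Odc1 ratio depended on it. At a finer clustering (Leiden resolution 2.0) the class split mainly into subcluster 18, led by Tnfrsf4, Klrg1, Ctla4 and Foxp3, and subcluster 15, led by Ccl1, Izumo1r, Penk and Tnfsf11. Subcluster 18 made up 41.5% of the class in DFMO and 85.9% in water, and subcluster 15 made up 55.1% and 14.1%. In subcluster 18 Odc1 had 1170 CPM (1057 to 1293) over 73 DFMO cells and 1313 CPM (1224 to 1406) over 170 water cells, a log2 ratio of -0.17 (-0.34 to 0.01). In the cells of subcluster 15 within the class it had 314 CPM (252 to 387) over 97 DFMO cells and 743 CPM (572 to 949) over 28 water cells, a ratio of -1.24 (-1.72 to -0.75). With the subclusters weighted alike in both libraries, the class had 880 CPM with DFMO and 1119 CPM with water, a ratio of -0.35 in place of -0.82, which is under 1.5-fold. When classes were named again from the resolution 2.0 clusters, the ratio was -0.55, also under 1.5-fold. Subcluster 15 also held cells of cluster 12, and over all its cells Odc1 had 387 CPM (332 to 449) with DFMO and 429 CPM (354 to 516) with water.

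**Figure D3:**
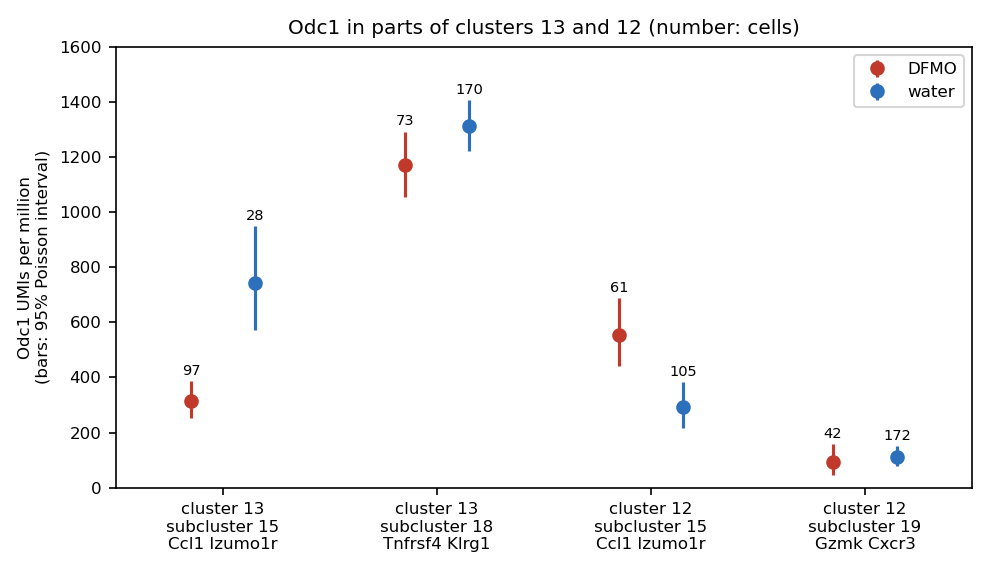
Odc1 level in CPM, DFMO left of water, in the resolution 2.0 subclusters of clusters 13 and 12 with at least 10 cells per library; bars are 95% Poisson intervals and the number above each is its cells. Within subcluster 18 the libraries lie close together, at 1170 CPM with DFMO and 1313 CPM with water, while in subcluster 15 they differ in opposite directions in clusters 13 and 12.

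Marker genes also differed between the libraries in this class, though not all in the direction of this make-up. In the regulatory T cell-like class, the summed level of 6 regulatory T cell markers was 5367 CPM with DFMO and 7343 CPM with water, though Foxp3, the lineage factor, had 522 and 469 CPM. Klrg1, a receptor of differentiated effector cells, had 326 CPM with DFMO and 614 CPM with water. The 5 naive T cell markers summed to 958 CPM with DFMO and 342 CPM with water, and Cd40lg had 89.2 and 7.03 CPM. Ccl1, a chemokine gene, had 17.6 CPM with DFMO and 503 CPM with water. Klrg1 and Ccl1 were chosen after their values were seen. The 6 B cell markers summed to 120 CPM with DFMO, with 2 of them at 0, and to 25.3 CPM with water, with 4 at 0. The part of these cells and markers in the Odc1 difference was not tested. Among cells of the class with a Foxp3 UMI, Odc1 was lower with DFMO, at 754 CPM (677 to 836) in 110 cells, against 1324 CPM (1226 to 1427) over 123 water cells. Class cells lacking a Foxp3 UMI had the same order. The 66 from DFMO gave 601 CPM (501 to 715), and the 75 from water gave 1036 CPM (899 to 1188). The split did not sort cells by subcluster, so it cannot show what part the subcluster mix had.

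Oaz1 ran the other way in the same class, at 1897 CPM (1795 to 2003) with DFMO and 1623 CPM (1531 to 1720) with water. The log2 ratio was 0.23 (0.11 to 0.34), where the median over all genes was 0.1. It was 0.12 with TMM scaling and 0.12 with the subclusters weighted alike. For every 100 Oaz1 UMIs there were 37.2 Odc1 UMIs (33.5 to 41.4) in DFMO and 76.6 (70.1 to 83.7) in water. This ratio of enzyme to antizyme transcripts is not per length and is compared between cells only. The corresponding values in fibroblast-like cells were 6.16 and 4.82. Azin1 had 68.8 CPM with DFMO and 68.9 CPM in water regulatory T cell-like cells, and Oaz2 35.1 and 42.2 CPM with overlapping intervals.

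In cluster 12 the order of the libraries was opposite. Odc1 had 340 CPM (275 to 415) over 103 DFMO cells and 166 CPM (134 to 204) over 277 water cells, a log2 ratio of 1.03 (0.60 to 1.46). Odc1 and Azin1 were the 2 of 3 members past 1.5-fold, and 21.6% of 4250 genes passed either way, 14.0% on the higher side. Azin1 rested on 25 and 30 UMIs, and its interval of -0.14 to 1.5 covered 0. Its ratio of 0.69 was 0.52 with TMM and 0.45 with each cell weighted alike, both under 1.5-fold. With the subclusters weighted alike it was 0.64 and after thinning 0.66, both past 1.5-fold. TMM scaling moved ratios here by -0.17. Subcluster 15 made up 59.2% of the cluster in DFMO and 37.9% in water, and its cells there had 555 CPM (443 to 687) and 291 CPM (215 to 384) of Odc1. The rest, subcluster 19 led by Gzmk, had 91.3 CPM (47.2 to 159) with DFMO and 111 CPM (80.0 to 150) with water. With the subclusters weighted alike, the Odc1 ratio of the cluster was 0.63. The 4 T cell markers summed to 6624 CPM with DFMO and 6991 CPM with water in cluster 12. Markers of T cell subsets and of other cell types differed more. The 2 CD4 T cell markers summed to 297 CPM with DFMO and 121 CPM with water, and the 5 naive T cell markers to 849 and 386 CPM. The 2 CD8 T cell markers summed to 2115 CPM with DFMO and 2928 CPM with water, and the 6 NK cell markers to 368 and 1059 CPM. The 11 monocyte and macrophage markers summed to 2815 CPM with DFMO, with 8 at 0, and 5535 CPM with water, with 3 at 0. Csf1r, Adgre1 and Fcgr1 were at 0 in both. That list includes Ly6c2, a leading gene of this cluster, so the sum is not a measure of myeloid RNA alone. The part of these markers in the Odc1 difference was not tested.

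CD8 T cell-like cells showed no member past 1.5-fold of 4, and 21.0% of 9056 genes passed. Odc1 had 138 CPM (125 to 153) with DFMO and 163 CPM (147 to 180) with water, a log2 ratio of -0.23 (-0.44 to -0.03). That ratio became -0.04 with clusters 6, 9 and 16 in the same mix in both libraries. Cluster 9, led by Dapl1, held 453 of 742 DFMO cells and 46 of 550 water cells. In the Pdcd1-high cluster 6 alone, Odc1 was higher with DFMO, at 221 CPM in 216 cells, against 161 CPM over 375 water cells, a ratio of 0.46 (0.19 to 0.73). No member passed the threshold there, where 12.1% of genes did. The Odc1 ratio of cluster 6 was 0.43 with TMM, 0.58 with each cell weighted alike and 0.88 after thinning, the last past 1.5-fold. Its main resolution 2.0 subcluster held 96.3% of its DFMO cells and 94.1% of its water cells. In that part the ratio was 0.59 (0.31 to 0.88), also past 1.5-fold. Clusters 9 and 16 went the other way, with overlapping intervals. Cluster 9 had 62.7 CPM (48.5 to 79.8) with DFMO and 129 CPM (61.7 to 237) on 10 UMIs with water. Cluster 16 had 127 CPM (103 to 155) and 169 CPM (143 to 198). Odc1 UMIs per 100 Oaz1 UMIs in cluster 16 were 6.16 (4.97 to 7.57) with DFMO and 10.0 (8.44 to 11.8) with water. Oaz1 was 1873 CPM with DFMO and 1595 CPM with water over the class, a ratio of 0.23 (0.17 to 0.29), and 0.12 with the clusters weighted alike. That weighting moved the other 2 measurable members away from 0. Oaz2, on 43 UMIs in each library, went from -0.24 (-0.88 to 0.41) to -0.8, past 1.5-fold. Azin1 went from 0.24 (-0.07 to 0.56) to 0.46.

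NK cell-like cells had nearly equal Odc1, with 161 CPM (139 to 186) with DFMO and 159 CPM (142 to 177) with water, a log2 ratio of 0.02 (-0.25 to 0.29). Azin1 had 79.2 CPM (63.9 to 97.2) with DFMO and 55.8 CPM (45.8 to 67.3) with water, a ratio of 0.51 (0.09 to 0.92). This Azin1 ratio was 0.62 with the subclusters weighted alike and 0.97 after thinning, both past 1.5-fold. It was 0.45 with TMM and 0.54 with each cell weighted alike, both under it. Without these alternatives, no member of 4 passed 1.5-fold, and 13.2% of 7708 genes did. All 4 ratios were above 0, with a median of 0.26 against 0.04 over all genes.

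Monocyte and macrophage-like cells had little Odc1 in either library, at 59.7 CPM (46.1 to 76.1) with DFMO and 41.4 CPM (36.2 to 47.1) with water. The log2 ratio of 0.53 (0.11 to 0.93) stayed under 1.5-fold, and it was 0.56 with clusters 7, 10 and 11 weighted alike and 0.66, past the fold, with each cell weighted alike. No member of 4 passed, and 15.8% of 8874 genes did. Odc1 was higher in DFMO in each of the 3 clusters, with overlapping intervals in clusters 7 and 11, and cluster 10 showed the widest gap, with 98.8 CPM over 61 DFMO cells and 55.3 CPM over 385 water cells. Oaz1 had 1270 CPM with DFMO and 1073 CPM with water, a ratio of 0.24 (0.16 to 0.33). The 11 monocyte and macrophage markers summed to 37739 CPM with DFMO and 40349 CPM with water.

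Fibroblast-like cells gave Odc1 levels of 97.5 CPM (83.1 to 114) with DFMO and 77.4 CPM (71.9 to 83.2) with water, a log2 ratio of 0.33 (0.08 to 0.58). This ratio was 0.31 with TMM scaling, 0.34 with the subclusters weighted alike and 0.37 with each cell weighted alike. After thinning to 1000 UMIs the ratio was 0.01, with an Odc1 UMI left in 5.77% of 104 DFMO cells and 6.3% of 825 water cells. In subcluster 13, led by Mfap4 and Postn, it was 0.7 (0.28 to 1.09) over 26 DFMO and 277 water cells. In subcluster 4, led by Dpt and H19, it was 0.09 (-0.29 to 0.46). Azin2, the member most enriched in this class, had 19.1 CPM with DFMO and 18.2 CPM with water. No member of 5 passed 1.5-fold, and 14.0% of 10521 genes did. Oaz2 had 55.0 CPM (44.4 to 67.5) with DFMO and 68.5 CPM (63.4 to 73.9) with water, and Azin1 had 86.2 and 72.0 CPM.

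Ptprc-low cells had under 20 CPM of Ptprc, the pan-leukocyte surface gene, in each cluster and matched no marker class. Odc1 had 187 CPM (179 to 196) with DFMO and 180 CPM (176 to 185) with water, a log2 ratio of 0.05. The Odc1 ratio was -0.03 (-0.16 to 0.09) in cluster 1, -0.02 (-0.15 to 0.12) in cluster 3 and 0.23 (0.08 to 0.39) in cluster 5. That cluster 5 ratio was 0.16 with TMM, 0.32 with subclusters weighted alike, 0.44 with each cell weighted alike and 0.7 after thinning. Over the class, Azin1 was higher with DFMO, at 115 CPM (109 to 122), against 97.8 CPM (94.5 to 101) with water, a ratio of 0.23 (0.14 to 0.33). Oaz2 was lower with DFMO, at 33.3 CPM (29.8 to 37.0), against 42.8 CPM (40.6 to 45.1) with water, a ratio of -0.36 (-0.54 to -0.19). Oaz1 had a ratio of 0.00 over the class, which sums clusters of both signs. It was -0.14 (-0.18 to -0.10) in cluster 1, 0.13 (0.09 to 0.17) in cluster 3 and -0.07 (-0.12 to -0.02) in cluster 5. In cluster 14 Oaz1 had 2304 CPM (2179 to 2435) over 72 DFMO cells and 1821 CPM (1755 to 1888) over 257 water cells. No member of 5 passed 1.5-fold in the class, and 7.99% of 11869 genes did.

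Azin1 was higher and Oaz2 lower with DFMO in the 3 Ptprc-low clusters with at least 100 cells per library. In the smaller cluster 14, Azin1 had 61.8 CPM (42.8 to 86.3) with DFMO and 66.4 CPM (54.4 to 80.3) with water, and Oaz2 had 43.6 CPM and 54.5 CPM, each with overlapping intervals. In the dividing cluster 1, Azin1 had a ratio of 0.29 and Oaz2 of -0.36. In cluster 3, led by Ero1l, Car9 and Ankrd37, they were 0.15 and -0.24, with intervals that covered 0. In cluster 5, led by Prl2c2, Nppb and Ccnd1, Azin1 had 133 CPM with DFMO and 97.4 CPM with water, a ratio of 0.45 (0.25 to 0.64). Oaz2 in cluster 5 had 28.3 CPM with DFMO and 45.0 CPM with water, a ratio of -0.67 (-1.08 to -0.28). It was the member past 1.5-fold of 5 there, and 11.4% of 10077 genes passed either way, 4.15% on the lower side. This ratio was -0.57 with the subclusters weighted alike and -0.13 with each cell weighted alike, both under 1.5-fold. With TMM it was -0.75, past 1.5-fold. The 2 dividing cell markers summed in cluster 5 to 100 CPM with DFMO and 50.8 CPM with water. The 6 B cell markers summed there to 39.6 CPM with DFMO, with none at 0, and 0.39 CPM with water, with 4 at 0. The 4 T cell markers summed to 34.2 CPM with DFMO and 9.63 CPM with water, and the part of these markers in the ratios was not tested. No member passed in clusters 1 and 3, where 9.36% and 8.80% of genes did.

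**Figure D4:**
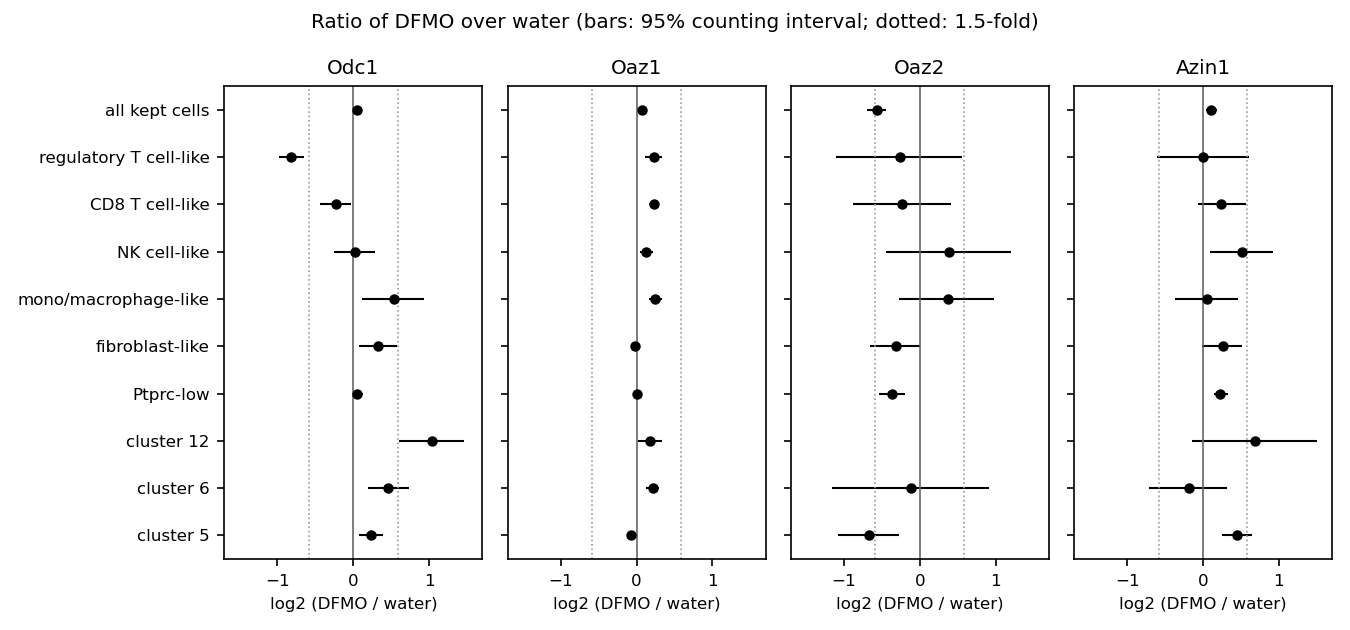
Log2 ratio of DFMO over water for Odc1, Oaz1, Oaz2 and Azin1 in 10 sets of cells, with 95% counting intervals; dotted lines mark 1.5-fold and members with under 30 UMIs are left out. Odc1 is lower in DFMO in regulatory T cell-like cells at -0.82 and higher in cluster 12 at 1.03, while Oaz1 stays within 0.24 of 0.

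The rest of the polyamine pathway was summarised from lists of 23 genes for synthesis, breakdown, transport, eIF5A hypusination and ornithine supply, of which 22 were in the matrix. Over all kept cells 1 of 21 measurable genes was higher and 2 were lower past 1.5-fold, a smaller share than the 27.9% of all genes that passed. Sms, spermine synthase, had 90.6 CPM with DFMO and 54.5 CPM with water. Arg1, arginase, had 20.4 CPM with DFMO and 49.0 CPM with water, and Sat2 1.75 and 3.38 CPM. Within monocyte and macrophage-like cells, 188 with DFMO and 1222 with water, Arg1 had 377 CPM with DFMO and 493 CPM with water, a log2 ratio of -0.39 that is under 1.5-fold.

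In regulatory T cell-like cells 4 of 12 pathway genes were higher and 1 was lower, beside 22.9% of all genes past the fold either way, and the list median was 0.22 against 0.10 over all genes. Srm, spermidine synthase, had 126 CPM with DFMO and 81.5 CPM with water, and Oat, ornithine aminotransferase, had 71.7 and 39.4 CPM. Amd1, the decarboxylase that supplies aminopropyl groups, and Atp13a3, a polyamine transporter, were also past the fold with intervals that covered 0. Smox, spermine oxidase, was lower, at 51.2 CPM with DFMO and 81.5 CPM with water. Myc, whose protein is a known activator of Odc1 transcription, had 165 CPM with DFMO and 108 CPM with water, a ratio of 0.61 (0.18 to 1.05), opposite in sign to Odc1. Of the 6 division genes, 0 passed in this class.

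In fibroblast-like cells 4 of 17 pathway genes were higher and 1 lower, where 14.0% of all genes passed, with a list median of 0.13 against 0.00. Amd1 had 37.7 CPM with DFMO and 22.8 CPM with water, Atp13a3 56.8 and 36.4 CPM, and Dohh, the second enzyme of hypusination, 31.1 and 19.4 CPM. Slc25a15 was also past the fold on 13 and 42 UMIs, with an interval that covered 0, and Atp13a2, a lysosomal polyamine exporter, was lower at 13.8 and 23.9 CPM. The division genes Mki67, Top2a and Mcm2 were 3 of 6 higher past the fold, against the same 14.0% of all genes, and Mki67 had an interval that covered 0. Their part in the pathway values was not tested.

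In CD8 T cell-like cells 2 of 15 were higher, where 21.0% of all genes passed the fold, Amd1 with 28.4 CPM with DFMO and 15.1 CPM with water and Atp13a2 with 15.3 and 7.77 CPM. In NK cell-like cells 1 of 12 was higher, where 13.2% of all genes passed, Dohh with 28.4 CPM with DFMO and 9.73 CPM with water. In monocyte and macrophage-like cells 2 of 16 were higher, where 15.8% passed, Sms with 43.2 and 27.9 CPM and Arg2 with 17.5 and 10.7 CPM, the second with an interval that covered 0. Myc was lower there, at 18.4 CPM with DFMO and 29.5 CPM with water. In Ptprc-low cells 0 of 18 were past the fold on the higher side and 2 on the lower, where 7.99% of all genes passed either way. They were Sat2, at 1.97 CPM with DFMO and 3.17 CPM with water, and Amd2, at 0.691 CPM on 7 UMIs with DFMO and 1.52 CPM on 51 UMIs with water, and both intervals reached 0.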

How the data were processed

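Single-cell 5′ libraries (10x Chromium) were processed with Cell Ranger 3.02 and Scanpy 1.4.4 on the mm10 build, per the submitters' processing notes. The authors deposited raw UMI counts for 10720 cells, and each cell's sum equalled its total in the deposited cell table, whose control cells were taken as the water group. The DFMO library held 23588037 UMIs and the water library 59748244. Cells with at least 200 genes were kept. Scrublet, at an assumed rate of 0.05, removed 51 DFMO cells (1.14%) and 97 water cells (1.55%). Only 26.7% and 35.0% of simulated doublets lay above its thresholds, so doublets may remain.

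Cells were scaled to 10000, and 2000 variable genes, receptor segments left out, were reduced to 30 principal components. Leiden clustering of the graph of 15 neighbours gave 23 clusters at resolution 1.0 (scanpy 1.11.5, leidenalg 0.10.2), without batch correction. A class needed 3 markers at least 2-fold higher in the cluster and seen in a share of 0.1 of its cells, with 1 among the 10 leading genes. Clusters that matched no class and had less than 20 CPM of Ptprc form the Ptprc-low set. Names were rebuilt here and may differ from the study's.

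Sums of UMIs were taken for each class in each library. CPM had exact Poisson, shares Clopper-Pearson and ratios exact conditional binomial 95% intervals, all for counting error only. Ratio intervals were also run on simulated Poisson counts, which hold no extra spread between cells, so that check does not cover such spread. With 1 library per group there is no test and no p-value. Ratios of classes and clusters needed at least 100 cells per library, and those of subclusters had no such minimum. Likeness was Pearson's r of log2(CPM + 1). All 5 members, the 5 genes most like Odc1, the 3 most like each other member and pathway genes past 1.5-fold were named, except 1 gene like Odc1 that is not reported here. Members and lists were chosen with earlier results of these data known. Alternatives were doublets kept, at least 500 genes, resolutions 0.5 and 2.0, cells weighted alike, TMM (edgeR 4.0.16) and totals without receptor segments. Others were the same cluster mix in both libraries, thinning to 1000 UMIs, and a lower and a higher fold threshold.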

Additional observations from a re-analysis of the deposited data

Results flagged for a closer look

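The Odc1 log2 ratio of DFMO over water had opposite signs in different cell classes, with counting intervals that excluded 0. It was 0.33 in fibroblast-like cells and 0.53 in monocyte and macrophage-like cells, and it was -0.23 in CD8 T cell-like cells and -0.82 in regulatory T cell-like cells. The CD8 value was -0.04 with its clusters weighted alike and 0.46 in cluster 6 alone. The fibroblast-like value was 0.01 after thinning, 0.31 with TMM, 0.34 with subclusters weighted alike and 0.37 with each cell weighted alike. In CD8 clusters 9 and 16 Odc1 was lower with DFMO, with overlapping intervals. The difference between classes was not tested, since each group was 1 library.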

How the results depend on the processing

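Odc1 in regulatory T cell-like cells, the only member ratio past 1.5-fold in a class before any alternative, kept its sign under every alternative run. Of 287 alternative ratios of members, 249 stayed inside the main counting interval. This ratio of -0.82 was -0.55 at resolution 2.0 and -0.35 with the resolution 2.0 subclusters weighted alike, both under 1.5-fold. That weighting and the removal of shared barcodes were chosen after seeing the data. Subcluster weighting also put the CD8 ratio at 0.03. With each cell weighted alike, Odc1 stood at -0.26 in all kept cells (-0.03 with clusters weighted alike), -0.46 in CD8 T cell-like cells and 0.22 in Ptprc-low cells. After thinning it stood at -0.18, -0.01 and 0.18 in these sets and at 0.01 in fibroblast-like cells. The cause was not tested.

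Odc1 in regulatory T cell-like DFMO cells was 614 CPM with cells weighted alike, 639 with doublets kept and 640 with at least 500 genes per cell, and in water cells 1149 with cells weighted alike, 1051 at resolution 2.0 and 1105 with at least 500 genes. Odc1 per 100 Oaz1 UMIs was 31.6 with doublets kept and 32.0 with at least 500 genes in DFMO, and 64.5 at resolution 2.0 and 66.6 with at least 500 genes in water. Thinning put the shares with an Odc1 UMI at 30.3% in DFMO and 54.3% in water. Of the 5 genes most like Odc1, 3 remained by Spearman's rho, 3 in DFMO clusters alone and 2 in water clusters alone. The 3 pathway genes past 1.5-fold in all kept cells became 12 at a lower threshold, 1 at 2-fold and 9 with cells weighted alike. No paired analysis was possible because a single library stands for DFMO and a single library for water.

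Depth limits the low members. Azin2 had under 30 UMIs in 4 of the 6 classes, and an Azin1 or Oaz2 ratio on fewer than 100 UMIs has an interval that spans more than 1.5-fold.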

Other observations

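Clusters under 50 cells were kept out of the order of levels. In the plasma cell-like cluster, led by Jchain, Mef2b and Rgs13, Odc1 had 285 CPM (225 to 357) over 27 DFMO cells and 333 CPM (228 to 470) over 6 water cells. In plasmacytoid dendritic cell-like cells it gave 0 UMIs in 4 DFMO cells and 384 CPM over 25 water cells, 28.0% of which held a UMI. The deposited gene table counted 14083 Odc1 UMIs and the matrix holds 13126. The reason for the gap was not examined.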
